A study of Mus musculus with 6 samples.

Results

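The desmosome and envelope genes examined here are Dsp, Jup, Pkp1, Pkp2, Pkp3, Dsg2, Dsc2, Dsc3, Perp and Evpl, measured in tongues of mouse embryos at embryonic day 14.5. They were chosen by name, with earlier results of these data known, so their counts against all genes are a description and no test. Every probe set whose single gene symbol in the platform annotation was one of these 10 was taken. This gave 23 probe sets of the 34945 that name 1 gene, or 10 genes of 18193. The mutant group held 3 tongues of genotype Tgfbr2 fl/fl; Wnt1-Cre and the control group 3 tongues of genotype Tgfbr2 fl/fl, without Cre, all of strain C57BL/6J. Both groups thus carried the floxed alleles of Tgfbr2, the gene of the type II TGF-beta receptor, although the titles call the controls wildtype. The labels place the inactivation in the cranial neural crest. Tongue epithelium does not come from the neural crest, so the cells in which desmosomes are most abundant are expected to keep an intact receptor gene in this model. Sex was not determined, and no label says whether the tongues came from separate litters, so p-values measure only the spread between these samples.

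Desmosomes are button-like junctions that join the keratin filaments of neighbouring epithelial cells, and the desmin filaments of heart muscle cells, into 1 mechanical network. Transmembrane cadherins, the desmogleins and desmocollins, bind across the gap between cells. Inside the cell their tails bind the armadillo proteins plakoglobin (gene Jup) and the plakophilins, which bind desmoplakin, the protein that holds the filaments. Perp is a membrane protein needed for desmosomes in stratified epithelia, and envoplakin (gene Evpl) is a plakin that links desmosomes and keratin to the cornified envelope, the protein shell of the outermost squamous cells.

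The labels name the material as tongue in one place and as tongue mesenchyme in another, and the defining markers of epithelium, muscle and connective tissue were all present on every array. All 6 epithelial markers (Epcam, Cdh1, Krt5, Krt14, Krt15 and Trp63) lay between 10.25 and 13.22 on the log2 scale in the 6 tongues. All 5 muscle markers lay between 8.94 and 13.92, and all 5 connective tissue markers between 9.02 and 14.25. Tgfbr2 RNA itself differed by -0.18 (standard error 0.18, limma adjusted p = 0.642), and no source used here says whether its probes lie in the recombined part, so it does not check the genotype labels. Mutant array 1 lay apart on the first principal component, at -39.1 against -6.91 and -2.87 for the other mutants and 9.29 to 20.04 for the controls. Values below are log2 expression after RMA, a method that corrects background, equalises the distributions of the arrays and summarises the probes of a probe set. Each gene is read by its brightest probe set, and all 10 members passed the filter that left 13645 genes.

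The desmosome genes Dsp, Pkp1 and Dsg2 rose in the mutant tongues. Of the 10 members these 3 passed at a limma adjusted p under 0.05 and 0 fell, where 1.32% of all tested genes were called higher and 0.821% lower. The median log2 difference of the 10 was 0.63, against 0.016 over all tested genes, and 9 of 10 were above 0 against 53.4% of all genes. In 8 members all 3 mutant values lay above all 3 control values, as in 13.6% of all genes. In Pkp2 all 3 lay below, as in 11.5%. At an unadjusted p under 0.05 there were 9 members higher and 1 lower, where the background was 9.43% and 7.46%. In whole-tongue RNA a larger share of epithelial cells and more RNA per epithelial cell cannot be told apart, and this holds for every result that follows.

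The number of called members depended on single arrays. It was 3 higher and 1 lower without mutant array 1, where 3.17% of all tested genes were called higher and 1.74% lower, so counts from that fit stand against a larger background here and below. It was 4 higher without mutant array 3, where 0.887% of all genes were called higher. It was 0 without mutant array 2 (0.330% of all genes higher), without control array 1 (0.528%) and without control arrays 2 or 3 (0.0733% each). It was also 0 with the level of Xist, an X-linked RNA of female cells, as a covariate, a fit that called 0.454% of all genes higher. Sex is not labelled, and Xist was 12.57, 6.14 and 13.17 in mutant arrays 1 to 3 and 11.74, 6.43 and 6.20 in control arrays 1 to 3, so that it was high in 2 mutants and 1 control. The direction of each member was the same in all of these fits.

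**Figure D1:**
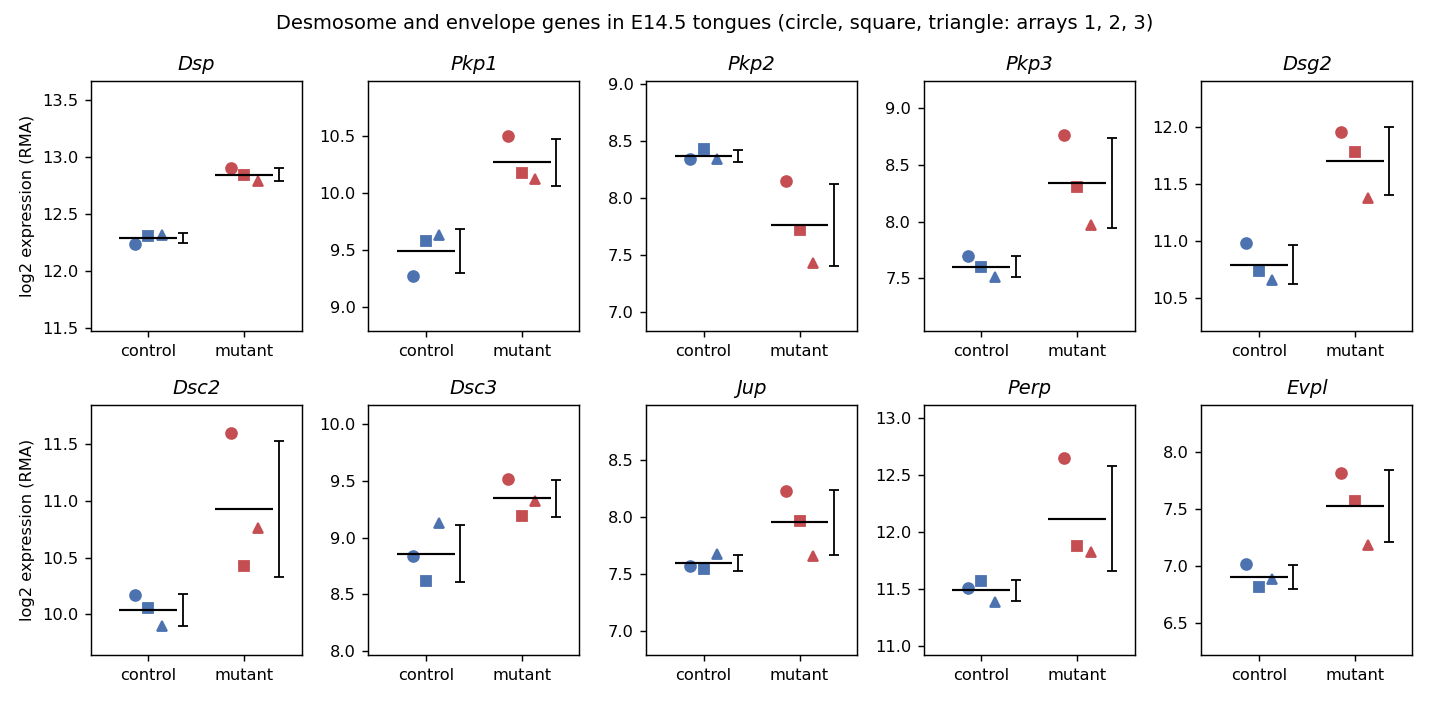
Log2 expression of each member on each array, with a panel per gene and the same height of scale in all panels; horizontal lines are group means and the bars beside them 1 SD (n = 3). The mutant values lie above the control values in 8 panels, overlap in Jup and lie below in Pkp2, and mutant array 1 (circle) is the highest mutant in all 10.

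Dsp encodes desmoplakin, the link between the desmosomal plaque and intermediate filaments. The mutant tongues, arrays 1 to 3, gave 12.90, 12.84 and 12.79, and the control tongues gave 12.24, 12.31 and 12.32. Values are listed in this order of arrays throughout. The groups did not overlap, and they spanned only 0.11 and 0.081. The means were 12.84 ± 0.057 and 12.29 ± 0.045 (SD, n = 3 per genotype), a rise of 0.56 (standard error 0.084, 1.47-fold, limma adjusted p = 0.0249). This was the smallest p among the members, although 6 other members had higher log2 differences. The call was kept without mutant array 1 (0.53, adjusted p = 0.0131) and without mutant array 3 (0.58, adjusted p = 0.0448). It was lost without mutant array 2 (adjusted p = 0.0779) and without control arrays 1, 2 and 3 (adjusted p = 0.0916, 0.140 and 0.141), with differences between 0.53 and 0.57. A second bright Dsp probe set differed by 0.42 (standard error 0.087) and also had no overlap between the groups. The third, dimmer one gave 0.070, with mutants at 6.55, 5.71 and 6.58 and controls at 6.00, 6.21 and 6.41. As the mean of all 3 probe sets Dsp differed by 0.35 and had no call (adjusted p = 0.151).

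RefSeq promoter sequences (GRCm38.p6) were matched for 2 members, the genes of the plaque proteins desmoplakin and plakoglobin. The search for members left out the chromosome that holds Dsg2, Dsc2 and Dsc3. For these partner genes the stretch from 250 to 51 bases before the start used in that table is shown. The RefSeq span of Jup reaches further upstream than that start, to just short of the window. Both lines run 5′ to 3′ on the gene's own strand, and capitals mark the GC box GGGCGG, the letters bound by Sp1, on either strand.
Dsp, chr13:38151044-38151243, plus strand: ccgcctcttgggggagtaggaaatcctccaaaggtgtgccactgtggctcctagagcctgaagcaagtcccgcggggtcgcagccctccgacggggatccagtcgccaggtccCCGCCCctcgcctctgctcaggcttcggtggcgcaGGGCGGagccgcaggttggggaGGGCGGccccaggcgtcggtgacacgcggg
Jup, chr11:100397841-100398040, minus strand: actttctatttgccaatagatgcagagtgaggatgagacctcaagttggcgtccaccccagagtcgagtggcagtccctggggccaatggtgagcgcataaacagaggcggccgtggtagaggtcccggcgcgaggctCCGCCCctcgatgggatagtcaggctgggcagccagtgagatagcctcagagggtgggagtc
The Dsp window held 3 GC boxes, the first letters of which lay 137, 102 and 80 bases before the start, and the Jup window held 1, at 112 bases. Of all 32851 promoter windows of the same length 24.6% held at least 1. Of the Dsp window 71.0% was G or C and of the Jup window 60.5%, against a median of 51.5% over all windows. Neither window held the letters CAGGTG (14.4% of windows), an E-box bound by Snail and Zeb repressors, TGANTCA (5.57%), the AP-1 site, AACNGGTT (1.42%), the core of Grainyhead-like factors, or CAGAC (35.8%), the Smad box, on either strand. The marked GC boxes overlap none of these. These matches describe letters in the window only.

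Jup encodes plakoglobin, an armadillo protein of both desmosomes and adherens junctions. It was 8.23, 7.97 and 7.66 in the mutants and 7.57, 7.54 and 7.68 in the controls. Mutant array 3 lay within the control range, and Jup was the only member whose groups overlapped. The log2 difference of 0.36 (standard error 0.15) had a limma adjusted p of 0.283, and the 95% interval of the difference ran from 0.012 to 0.70. It was 0.22 without mutant array 1 (adjusted p = 0.318).

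The plakophilins, which gather the cadherin tails and desmoplakin at the plaque, differed in sign. Pkp1, the plakophilin of the upper layers of stratified epithelia, was 10.50, 10.18 and 10.13 in the mutants and 9.27, 9.57 and 9.63 in the controls, with no overlap. Its mean went from 9.49 ± 0.20 to 10.27 ± 0.20 (SD, n = 3 per genotype), a rise of 0.78 (standard error 0.14, 1.71-fold, limma adjusted p = 0.0429). The call was kept without mutant array 1 (0.66, adjusted p = 0.0295) and lost without each of the other 5 arrays (adjusted p between 0.0565 and 0.163, differences between 0.67 and 0.85), as well as with the replicate number as a block (adjusted p = 0.0556). Pkp3, found in nearly all desmosome-bearing epithelia, was 8.76, 8.30 and 7.97 in the mutants and 7.70, 7.60 and 7.51 in the controls. Its groups did not overlap either, but the mutants spanned 0.79 and the controls 0.19. The difference of 0.74 (standard error 0.19) did not pass (limma adjusted p = 0.114), and passed with the replicate number as a block (adjusted p = 0.0408) and without mutant array 3 (0.93, adjusted p = 0.0490).

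Pkp2, the plakophilin of simple epithelia and of heart muscle, was 8.14, 7.72 and 7.42 in the mutants and 8.34, 8.43 and 8.34 in the controls. All 3 mutants lay below the controls, and mutant array 1 was nearest to them. The log2 difference of -0.61 (standard error 0.17) did not pass (limma adjusted p = 0.142). Without mutant array 1 it was -0.80 and passed (adjusted p = 0.0104). A second Pkp2 probe set gave -0.63 (standard error 0.22), with 7.65, 6.89 and 6.88 in the mutants and 7.65, 7.71 and 7.97 in the controls, so that mutant array 1 was above the lowest control there. Its 2 other probe sets were dim, near or under the filter of 4.79 for probe sets, and gave -0.056 and -0.13.

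The plakophilins were also compared with each other within each tongue. The log2 signal of Pkp1 minus that of Pkp2 was 2.36, 2.46 and 2.70 in the mutants and 0.93, 1.14 and 1.29 in the controls, a shift of 1.38. For Pkp3 minus Pkp2 it was 0.61, 0.58 and 0.54 in the mutants and -0.64, -0.83 and -0.83 in the controls, a shift of 1.35. Since Pkp1 and Pkp3 lay above and Pkp2 below their controls without overlap, these ratios had to separate the groups, and they are given as a description with no test. Their SDs among the mutants were 0.18 and 0.035 (n = 3). Pkp1 minus Pkp3 shifted by 0.039. Only the shift of such a ratio between genotypes can be read, since the level of a probe set also depends on its probes. Pkp4, a related gene whose protein sits mostly at adherens junctions, differed by 0.032 (standard error 0.11, limma adjusted p = 0.912).

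**Figure D2:**
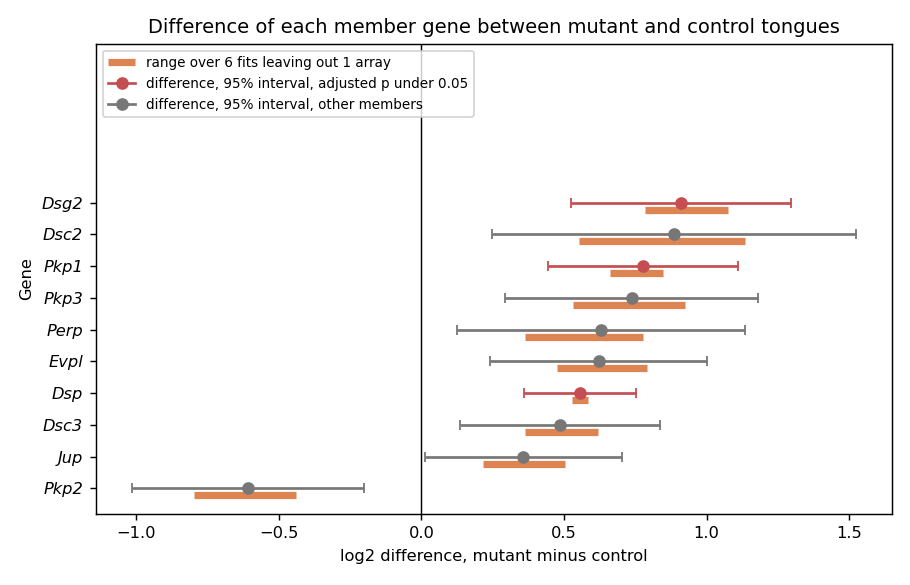
Log2 difference, mutant minus control, of each member with its 95% interval from the limma fit (point and bar) and the range of that difference over the 6 fits that each left out 1 array (thick bar). The 3 red members passed at an adjusted p under 0.05, 9 members lie right of 0 and Pkp2 lies left of it.

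Among the desmosomal cadherins Dsg2, the most widespread desmoglein, had the largest difference of all 10 members. It was 11.95, 11.78 and 11.37 in the mutants and 10.98, 10.73 and 10.66 in the controls, with no overlap. The mean went from 10.79 ± 0.17 to 11.70 ± 0.30 (SD, n = 3 per genotype), a rise of 0.91 (standard error 0.17, 1.88-fold, limma adjusted p = 0.0404). The call was kept without mutant array 1 (0.78, adjusted p = 0.0347), without mutant array 3 (1.07, adjusted p = 0.0283) and with the replicate block (adjusted p = 0.0127). It was lost without mutant array 2 (adjusted p = 0.138) and without control arrays 1, 2 and 3 (adjusted p = 0.0838, 0.195 and 0.200), with differences between 0.84 and 1.01. Dsg2 is read by 6 probe sets, all with positive differences. The 3 brightest gave 0.91, 0.87 and 0.73 and the fourth 0.39, each without overlap between the groups. The other two gave 0.10 and 0.40, with overlap. Their mean differed by 0.57 and had no call (adjusted p = 0.146).

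Dsc2, the desmocollin that accompanies Dsg2 in most tissues, was 11.59, 10.43 and 10.76 in the mutants and 10.18, 10.05 and 9.89 in the controls. Its mutants spanned 1.16, the widest span of any member, with array 1 far above the others. The log2 difference of 0.89 (standard error 0.27) therefore came with a limma adjusted p of 0.165, and it was 0.55 without mutant array 1 (adjusted p = 0.0621). Its second probe set gave 0.80, from 8.74, 7.79 and 7.93 in the mutants and 7.46, 7.37 and 7.25 in the controls. Dsc3, the desmocollin of basal cells in stratified epithelia, was 9.52, 9.19 and 9.32 in the mutants and 8.84, 8.62 and 9.12 in the controls. The lowest mutant was only just above the highest control, and the difference of 0.49 (standard error 0.15) did not pass (limma adjusted p = 0.166). A second, dimmer Dsc3 probe set gave 0.36, with mutants between 5.79 and 6.05 and controls between 5.51 and 5.63.

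The desmocollin and desmoglein genes lie together on 1 mouse chromosome in the RefSeq table, with Dsc3, Dsc2 and Dsc1 at one end and Dsg2 at the other. Of the cluster genes other than Dsc3, Dsc2 and Dsg2, only Dsg1a was tested. Dsc1, a gene of late epidermal layers, was under the filter in both groups, between 3.99 and 4.40 on the 6 arrays. Dsg1a, which codes for a desmoglein of upper epidermal layers, was 6.44, 5.35 and 5.93 in the mutants and 4.70, 5.32 and 5.11 in the controls, a difference of 0.86 (standard error 0.28, limma adjusted p = 0.179). Its control mean of 5.04 was under the gene filter of 5.17, so Dsg1a was tested only because of its mutant values. Dsg1b was under the filter, with 4.94, 3.86 and 3.78 in the mutants and 3.56, 3.42 and 3.56 in the controls. No single-gene probe set of Dsg1c, Dsg3 or Dsg4 was analysed here. Of the 4 tested genes of the cluster (Dsc3, Dsc2, Dsg1a and Dsg2), Dsg2 alone passed.

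Perp encodes a tetraspan membrane protein that p53 and p63 can induce and that desmosomes of stratified epithelia require. It was 12.65, 11.87 and 11.83 in the mutants and 11.51, 11.57 and 11.39 in the controls. The groups did not overlap, yet mutant array 1 stood far above the other mutants. The difference of 0.63 (standard error 0.22) had a limma adjusted p of 0.205, and it was 0.36 without mutant array 1 (adjusted p = 0.0644). Of 13 tested p53 target genes 2 rose, Pmaip1, which codes for the pro-apoptotic protein Noxa, by 2.64 (limma adjusted p = 0.00298) and Bbc3, which codes for the pro-apoptotic protein Puma, by 0.56 (adjusted p = 0.0264). Phlda3 and Fas gave 0.64 and 0.74 (adjusted p = 0.0527 and 0.0805), and the median of the 13 was 0.16. Without mutant array 1 there were 4 called higher, with Phlda3 and Cdkn1a, in a fit that called 3.17% of all genes higher against 1.32% with all arrays.

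Evpl, the envoplakin gene, was 7.82, 7.57 and 7.19 in the mutants and 7.02, 6.81 and 6.88 in the controls. The groups did not overlap, and the difference of 0.62 (standard error 0.16) did not pass (limma adjusted p = 0.119). It passed without mutant array 3 (0.79, adjusted p = 0.0401) and with array quality weights (0.54, adjusted p = 0.0306). Its binding partner periplakin (gene Ppl), which is not a member, was 8.04, 7.85 and 7.61 in the mutants and 7.17, 7.06 and 7.25 in the controls. Ppl rose by 0.67 (standard error 0.13, limma adjusted p = 0.0486). It was the only gene called of 14 tested cornified envelope genes, of which 13 were above 0 with a median of 0.16. Scel, which codes for the envelope protein sciellin, gave 1.05 (adjusted p = 0.188) with 10.52 in mutant array 1 against 9.21 and 9.10 in the other mutants. Without mutant array 1, 13 were tested, 10 were above 0 with a median of 0.095, and both Ppl and Scel were called. Among the other envelope genes, Ivl, the involucrin gene, gave 0.080 with a mean of 5.29 over the 6 arrays, Lor, the loricrin gene, gave -0.079 with a mean of 6.83, and Krtdap, a gene of differentiating keratinocytes, gave 0.68 with means of 8.34 in the mutants and 7.66 in the controls (limma adjusted p = 0.354). Krtdap was 8.41, 8.26 and 8.36 in the mutants and 6.79, 8.23 and 7.95 in the controls, so control array 1 lowered the control mean.

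**Figure D3:**
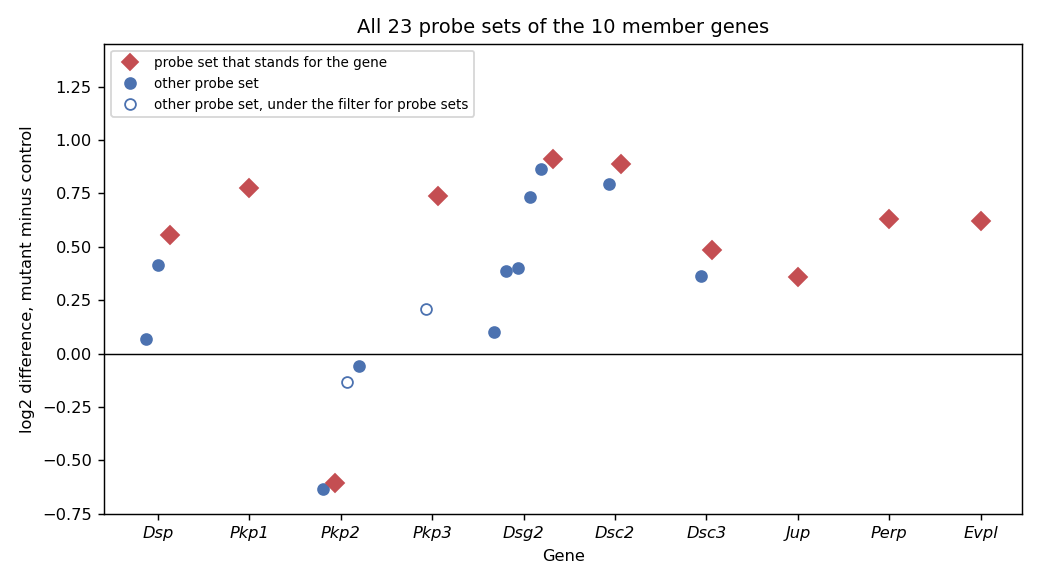
Log2 difference, mutant minus control, of all 23 probe sets of the 10 members; diamonds mark the brightest probe set, which stands for the gene, and open circles the 2 probe sets under the filter. All 4 probe sets of Pkp2 lie below 0 and the 19 of the other members above it.

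Across the 21 member probe sets that passed the filter for probe sets, 18 differed by more than 0 and 3, all of Pkp2, by less. The groups did not overlap in 15 of the 23, 14 higher and 1 lower. Over all tested genes 13.6% were higher without overlap and 11.5% lower, and the shares over all probe sets were not computed. The 23 are repeated readings of 10 genes and not separate evidence. When every probe set was tested on its own, Dsp was the only member called (adjusted p = 0.0332), and Dsg2 and Pkp1 missed narrowly (adjusted p = 0.0511 and 0.0542). Dsp, Pkp2 and Jup are read by probe sets with the suffix _s_at, given where probes match several similar transcripts, so related RNAs may add to their signal.

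Mutant array 1 had the highest mutant value in all 10, Pkp2 included, and the highest of all 6 arrays in 9. With each gene set to 0 at its control mean, the median over the members was 0.96 on mutant array 1, 0.47 and 0.41 on mutant arrays 2 and 3, and between -0.026 and 0.0028 on the controls. The median of the 10 differences became 0.50 when mutant array 1 was left out. As a measure of likeness, the root mean square distance between centred profiles over the 6 arrays was smallest for Pkp3 and Evpl (0.096), Pkp3 and Perp (0.13) and Pkp3 and Dsg2 (0.13), and the 9 pairs with Pkp2 were the 9 largest, from 0.49 to 0.79. Pkp2 was the only member with a negative difference, so its large distances follow in part from its sign.

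Genes outside the set with profiles nearest to the called members were found by the same distance over all tested genes. Nearest to Dsp were Crip1 (0.025), Lpcat2 (0.029), Acsbg1 (0.034), S100a13 (0.058) and Polk (0.061). For Pkp1 they were S100a1 (0.064), Egln3 (0.070), Pisd-ps3 (0.076), Tmprss13 (0.089) and Slc2a1 (0.11). For Dsg2 they were Ifitm3 (0.069), Fcrls (0.078), Trim29 (0.084), Ch25h (0.093) and C1qb (0.099). All 15 had positive differences, between 0.50 and 0.88, which their choice by likeness to raised members fixed in advance. They share the 6 arrays and their genotype split with the members.

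By their list medians, markers of epithelium were high on the same arrays as the desmosome genes. All 14 tested epithelial keratin genes were above 0, with a median of 0.67 (0.41, with 13 above 0, without mutant array 1), and Krt17, a keratin of developing skin appendages and activated epithelium, rose by 1.83 (standard error 0.22, limma adjusted p = 0.0120). It was the only keratin called (3 without mutant array 1, with Krt14 and Krt15). Krt6a gave 1.36, Krt15 0.56 and Krt14 0.94 (adjusted p = 0.0555, 0.0595 and 0.0605). Krt17 was 9.04, 8.94 and 8.80 in the mutants and 6.55, 7.41 and 7.34 in the controls. Krt6a was 10.50, 10.51 and 10.49 in the mutants and 8.45, 9.59 and 9.40 in the controls. Neither gene had overlap between the groups, but control array 1 lowered both control means. Of 20 epithelial identity genes all 20 were above 0, with a median of 0.55 (0.32 without mutant array 1), and 1 rose, Klf4, a gene of a transcription factor of epithelial barrier formation, by 0.42 (adjusted p = 0.0476). Trp63, the gene of the stratified epithelium regulator p63, gave 0.57, Esrp1, an epithelial splicing factor gene, 0.71, and Sox2 0.72 (adjusted p = 0.108, 0.143 and 0.166). Single genes did not all follow the list medians. Klf4 was 11.49, 11.47 and 11.52 in the mutants, and Trp63 was highest on mutant array 2. Esrp1 and Sox2 were highest on mutant array 1. On mutant arrays 1, 2 and 3 the list medians were 1.34, 0.55 and 0.36 for the keratins and 1.12, 0.41 and 0.27 for the identity genes, and on the controls from -0.037 to 0.051 and from -0.077 to 0.16. The summed signal of the identity genes ranged from 13.84 to 14.42 on the log2 scale in the mutants and from 13.47 to 13.64 in the controls, and that of the 10 members from 14.11 to 14.58 and from 13.61 to 13.65. The part of epithelial content in the desmosome differences was not tested.

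**Figure D4:**
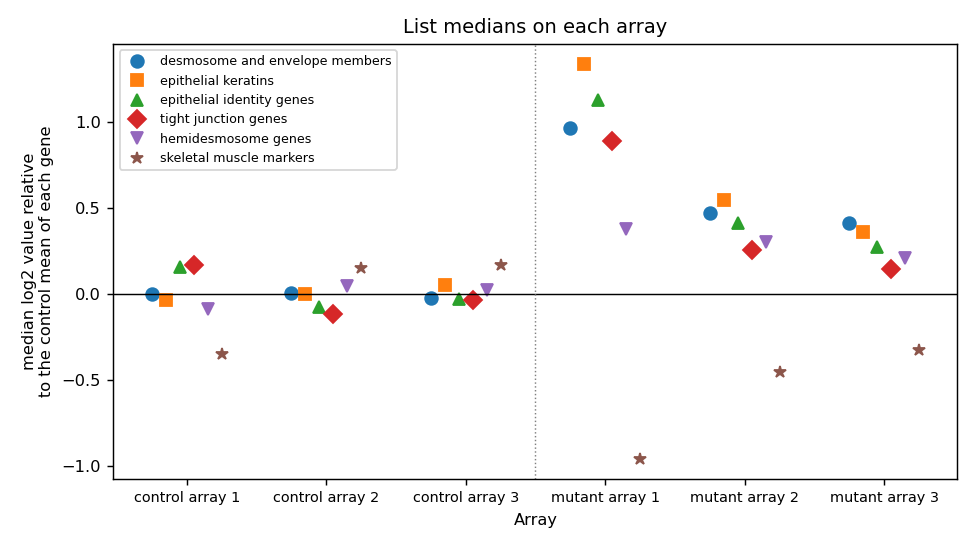
Median log2 value of each list on each array, with each gene set to 0 at its control mean. The members sit at 0.96, 0.47 and 0.41 on mutant arrays 1, 2 and 3, the keratin and identity lists show the same high point on mutant array 1, and the muscle markers their low point (-0.96).

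The other junctions were not all alike. Of 9 tested hemidesmosome genes, whose products anchor basal cells to the basement membrane, 2 rose: Lama3, a laminin-332 chain gene, by 0.84 (limma adjusted p = 0.0184) and Col17a1, a transmembrane collagen gene, by 0.94 (adjusted p = 0.0249). Lamb3 and Itgb4 gave 0.48 and 0.39 (adjusted p = 0.130 and 0.148), and 4 of the 9 were below 0. Of 16 tight junction genes 14 were above 0 and 1 rose, Cldn1, the claudin gene of the skin barrier, by 0.57 (adjusted p = 0.0298). F11r, Cldn6 and Cldn8 gave 0.51, 0.61 and 1.03 (adjusted p = 0.0577, 0.268 and 0.279). F11r was also called without mutant array 1. The median of the tight junction genes was 0.47, and 0.24 without mutant array 1. By array their median was 0.89, 0.26 and 0.15 in the mutants and 0.17, -0.11 and -0.037 in the controls. Control array 1 thus lay above mutant array 3. Of 10 adherens junction genes 0 passed (limma), and 1, Nectin4, had an unadjusted p under 0.05 (0.65, adjusted p = 0.179). Their median was -0.11 with 3 above 0, and -0.018 with 5 above 0 without mutant array 1. That list holds genes used by many cell types, and its epithelial cadherins differed in sign: Cdh1 gave 0.45 (adjusted p = 0.326) and Cdh3 -0.23 (adjusted p = 0.379), while Nectin2 gave -0.14 (adjusted p = 0.507).

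**Figure D5:**
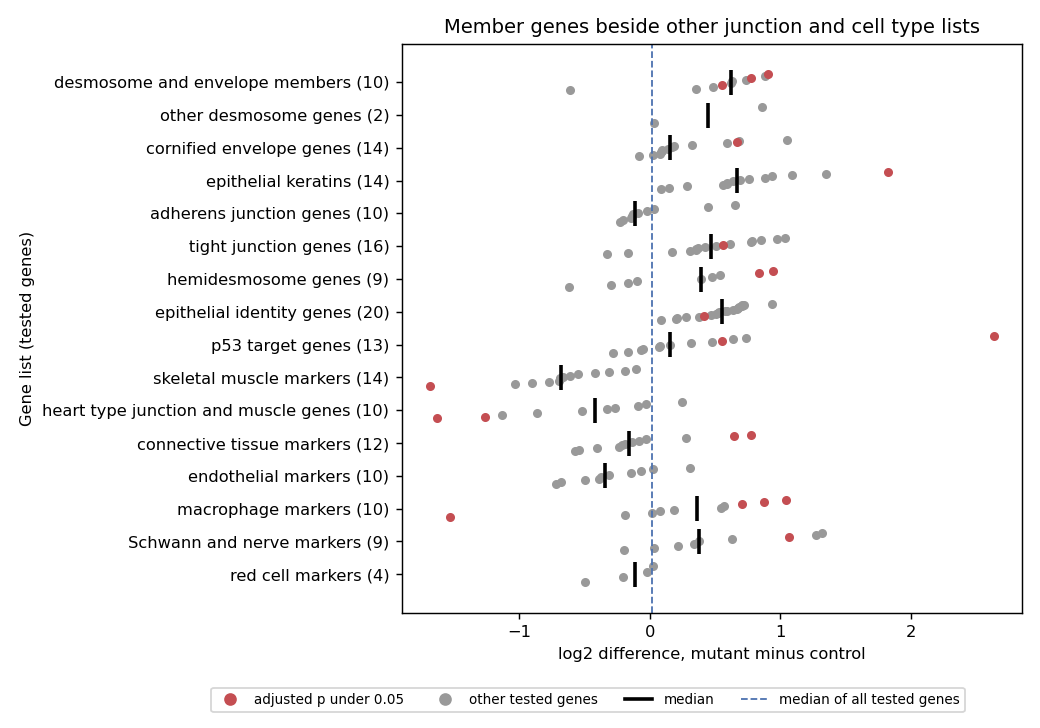
Log2 difference, mutant minus control, of each tested gene of the members and of 15 other lists, with the number tested in parentheses, black bars at list medians and a dashed line at the median of all tested genes (0.016). The members (median 0.63) lie with the keratin, identity and tight junction lists to the right, and the muscle lists lie to the left.

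Muscle genes had negative differences on the same arrays. All 14 skeletal muscle markers were below 0, with a median of -0.68 (-0.45 without mutant array 1). The list medians were -0.96, -0.46 and -0.33 on mutant arrays 1, 2 and 3 and -0.35, 0.15 and 0.17 on the controls. Control array 1 thus lay below mutant array 3, and the groups overlapped in this median. In 9 of the 14 markers all 3 mutants lay below all 3 controls. Of the markers 1 passed: Actn3, the fast-fibre alpha-actinin gene, fell by 1.68 (limma adjusted p = 0.0105). Myl1, Tnnt3 and Tnni2 gave -0.55, -0.77 and -0.61 (adjusted p = 0.0906, 0.138 and 0.144). Of 10 genes of heart-type junctions and muscle, given here because Pkp2 and Dsp also serve heart muscle, 9 were below 0 (7 without mutant array 1) and 2 passed. Myh6, a cardiac myosin gene, fell by 1.26 (adjusted p = 0.00792), and Nrap, a gene of myofibril assembly, fell by 1.63 (adjusted p = 0.0476). Xirp1 and Ldb3 gave -0.86 and -1.13 (adjusted p = 0.120 and 0.134). The median of these 10 on mutant arrays 1, 2 and 3 was -1.07, -0.25 and -0.13, lowest on array 1, whereas Pkp2 was lowest on array 3 (-0.23, -0.65 and -0.95 relative to the control mean). Whether muscle content has a part in the Pkp2 values was not tested.

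Of the remaining cell types, 3 of 10 macrophage markers rose (C1qa by 1.05, C1qb by 0.87 and C1qc by 0.71) and Mrc1 fell by 1.53 (limma adjusted p between 0.00775 and 0.0482). Of 9 Schwann and nerve markers Stmn2 rose by 1.07 (adjusted p = 0.0272). With all arrays Nefl, Nefm and Cdh19 gave 1.27, 1.32 and 0.63 (adjusted p = 0.0599, 0.0674 and 0.138). Without mutant array 1, 5 markers were called higher, Stmn2, Nefm and Cdh19 among them (3.17% of all genes in that fit). Of 12 connective tissue markers Lum rose by 0.77 and Dcn by 0.65, with adjusted p = 0.0152 and 0.0238, while Col1a2 and Prrx1 gave -0.57 and 0.28 (adjusted p = 0.270 and 0.372). No endothelial marker of 10 passed (4 had no overlap, all lower), with Cldn5 nearest at -0.68 (adjusted p = 0.0555), called lower without mutant array 1. The 4 tested red cell markers gave 0 calls, with Slc4a1 nearest at -0.49 (adjusted p = 0.0873), called lower without mutant array 1.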

How the data were processed

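The authors deposited 1 log2 value per probe set and array, and per the submitters' processing notes these were made with RMA (version not stated). The table holds 45101 probe sets on 6 arrays. Arrays have no read depth, so precision is set by their number: log2 differences had a median standard error of 0.117. Genes were named from the platform annotation where a probe set had 1 symbol (34945), and symbols were compared with RefSeq GRCm38.p6 through Entrez identifiers (0 changed). The brightest probe set stood for a gene, and the lowest 25% of genes, under 5.17, were left out. The genotypes were compared by lmFit and eBayes of limma 3.58.1 under R 4.3.3 (2-sided), with Benjamini-Hochberg adjustment over all 13645 genes and a threshold of 0.05. The procedure was tested on simulated data. The titles number the arrays within each group, and this number served as the replicate block in an alternative fit. The correlations between same-numbered mutant and control arrays, taken on deviations from the group mean, were 0.309, 0.105 and 0.206. Each was above the limit of 0.1. Arrays of different number were not compared in this way, so these values cannot show that the arrays are paired. The main fit used no pairing.

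The members, the 15 other gene lists and the alternatives were chosen with earlier results of these data known, and lists are described by counts and medians without a test. The rule for named genes took all members, up to 4 genes of each list with the smallest p, Tgfbr2, and the 5 genes nearest in profile to each called member. Outside it, Ivl, Lor, Krtdap, Cdkn1a, Dsc1 and Dsg1b were chosen with their values in view. The alternatives were 2 gene filters, 2 uses of probe sets, 2 scalings, 2 variance models, the replicate block, the level of Xist as a covariate, each array left out and 2 thresholds. Added after the data were seen were the list counts without mutant array 1. Figures were drawn with matplotlib 3.10.9.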

Additional observations from a re-analysis of the deposited data

How the results depend on the processing

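No member changed direction under any alternative: log2 differences ranged from 0.35 to 0.58 for Dsp, from 0.62 to 0.85 for Pkp1, from 0.57 to 1.07 for Dsg2 and from -0.80 to -0.36 for Pkp2. The calls were less stable. The 292 calls over all genes became 151 under the filter at 50%, 1034 with array quality weights, 490 with the replicate block, 111 with the level of Xist as a covariate and 549 at an adjusted p under 0.1, and 15 to 670 when 1 array was left out. Of the members, 3 were called higher, but 1 with the mean of the probe sets (Pkp1), 1 with every probe set on its own (Dsp), 6 with array quality weights (with Dsc2, Evpl and Pkp3) and 0 with the Xist covariate. Array quality weights called 1 lower, Pkp2. That fit called 4.65% of all genes higher, against 1.32% in the main fit, and 400 of 13645 lower, against 112. Its member counts therefore stand against a larger background. The share called higher was 1.38% with the mean of the probe sets and 2.07% with the replicate block. With every probe set on its own it was 0.775% of the probe sets. Leaving out 1 array gave 0 to 4 higher and 0 to 1 lower. With the replicate block 3 members were called higher, Pkp3 in place of Pkp1, and the block changed no other member's call. With the Xist covariate the differences of Dsp, Pkp1 and Dsg2 were 0.57, 0.81 and 0.89 (adjusted p = 0.0807, 0.107 and 0.125). With a fold of at least 1.5 Dsp (1.47-fold) was no longer counted, and the filter at 50% lost Pkp1 (adjusted p = 0.0515). With arrays centred on their median 149 of 281 called genes were higher, against 180 of 292. The cause of these changes was not tested.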
